A study of Mus musculus with 9 samples.

Results

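The genes of 3 families of axon guidance cues and their receptors were followed in layer IV of the mouse barrel cortex of mice that differ in their copies of Gap43. They are the Eph receptors with their ephrin ligands, the Robo receptors with their Slit ligands, and the netrins with the Dcc and Unc5 receptors. The netrin-Gs, relatives of the netrins, were grouped with them. Members were all probe sets whose single gene symbol in the platform annotation matched one of these family names. They came to 54 of the 22690 probe sets on the array and to 34 of the 12394 genes that those with a single symbol name. One of those genes, Unc50, with 3 probe sets, matched only by its letters. It encodes a membrane protein known in worms for the trafficking of acetylcholine receptors and is not a netrin receptor. Unc50 is kept apart from the families below but is counted in the totals and medians over all members. Medians without it are given at the end.

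The mice, C57BL/6 animals sampled at postnatal day 5, carried both copies of Gap43 (wild type, WT), lacked one (heterozygous, HZ) or lacked both (knockout, KO). GAP-43 is a membrane protein of growth cones. Layer IV was cut out by laser microdissection, and each of 9 mice, 3 per genotype, gave 1 Affymetrix array. No treatment is named in the labels, which refer to earlier work for the mouse line and do not give the deleted part of the gene. The label is whole layer IV tissue, so that fewer cells of a type and less RNA per cell cannot be told apart. The labels name no promoter or cell type to which the loss of Gap43 was limited.

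Ephrins are held on the surface of one cell and bind Eph receptors on another, and contact can send a signal into both cells. Ephrin-A ligands are tied to the membrane by a lipid anchor and ephrin-B ligands cross it. Graded ephrin-A and EphA expression is known to help lay out the map of thalamic axons in the somatosensory cortex. Slits are secreted proteins that repel axons carrying Robo receptors. Netrin-1 attracts axons through Dcc and repels them where Unc5 receptors are present, while netrin-Gs are lipid-anchored relatives found on subsets of axons, among them thalamic ones.

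The values are array signals on a linear scale, scaled by the authors so that the trimmed mean was 500.2 on every array, and changes are differences of log2(signal + 16). Probe sets were tested together with limma, and only the 13576 with the highest mean over all arrays, at or above a geometric mean of 117, were tested. Gap43 itself, read by 1 probe set, had signals of 7089, 4746 and 4294 in WT, 5015, 5039 and 4389 in HZ, and 979.4, 1930 and 1299 in KO. It was 3.85-fold lower in KO than in WT (limma adjusted p = 0.0173) and 3.53-fold lower than in HZ (limma adjusted p = 0.0362). These calls were kept in 14 and 10 of 21 alternative settings, with limma adjusted p of up to 0.204 and 0.287, while the log2 change ran from -2.20 to -1.72 and from -2.08 to -1.59. The HZ and WT arrays overlapped (log2 change -0.13, limma adjusted p = 0.915). By their sex-linked transcripts, each genotype held 2 females and 1 male. The array of HZ replicate 2 stood apart in the log2 ratio of 3' to 5' control signals, a measure of how complete the RNA copies were, at 4.72 against 3.31 to 3.96 on the other arrays. Several HZ values of single genes are also given without it, but the family, ligand and receptor medians are not.

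The start regions of Robo1, Epha3 and Efnb2 are shown because these genes had the largest differences between genotypes among the tested member probe sets. For Efnb2 this was its dimmer tested probe set, named after its values were seen. Each is the RefSeq (GRCm38.p6) sequence from 250 bases before to 50 bases after the annotated start, on the gene's own strand. Robo1 lies at chr16:72662899-72663198 (plus strand), Epha3 at chr16:63864126-63864425 (minus strand) and Efnb2 at chr8:8661193-8661492 (minus strand). Capitals mark a GC box (GGGCGG, or CCGCCC on the other strand) or a TATA box (TATAAA, or TTTATA on the other strand).
Robo1: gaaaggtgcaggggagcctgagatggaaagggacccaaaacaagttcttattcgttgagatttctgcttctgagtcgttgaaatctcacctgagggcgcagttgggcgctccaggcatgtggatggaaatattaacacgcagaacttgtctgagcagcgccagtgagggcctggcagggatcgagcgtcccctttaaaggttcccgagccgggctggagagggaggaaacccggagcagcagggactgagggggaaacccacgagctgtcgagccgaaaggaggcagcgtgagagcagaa
Epha3: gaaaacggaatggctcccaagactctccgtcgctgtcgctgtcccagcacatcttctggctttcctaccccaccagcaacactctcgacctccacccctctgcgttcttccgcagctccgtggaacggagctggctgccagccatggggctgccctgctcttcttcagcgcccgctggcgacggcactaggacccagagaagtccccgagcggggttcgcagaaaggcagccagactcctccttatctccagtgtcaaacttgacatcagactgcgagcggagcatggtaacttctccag
Efnb2: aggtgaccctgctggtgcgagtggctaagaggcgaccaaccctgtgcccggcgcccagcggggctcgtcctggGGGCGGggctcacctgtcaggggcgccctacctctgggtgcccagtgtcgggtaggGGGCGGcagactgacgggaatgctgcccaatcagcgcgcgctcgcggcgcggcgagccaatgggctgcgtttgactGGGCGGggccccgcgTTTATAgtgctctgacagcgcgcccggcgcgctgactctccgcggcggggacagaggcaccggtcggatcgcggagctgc
The Robo1 window held 15 CpG dinucleotides and the Epha3 window 18, with 0 GC boxes and 0 TATA boxes in either. The Efnb2 window held 35 CpG dinucleotides, 3 GC boxes and 1 TATA box. A window was available for 30 of the 34 genes, and 23 of these (76.7%) held a GC box, against 35.9% of all 27025 mouse windows of the same length. The median CpG count was 22.5 in the members and 7 in all windows, and 2 member windows (6.67%) held a TATA box against 14.2% of all. GC boxes were in 7 of 8 EphA windows, 3 of 3 EphB windows and 4 of 5 ephrin-A windows, but in 1 of 3 Robo windows. The 27025 windows were not limited to genes on the array, so whether the members differ from other genes on it was not tested. These matches describe letters in the windows only.

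Of the 54 probe sets, 32 were bright enough to be tested, and they read 22 genes. Family counts here are of the member genes on the array, so a family gene without a single-symbol probe set is not in them. The tested genes were 6 of 8 EphA receptors, 2 of 3 EphB receptors, 2 of 5 ephrin-A ligands and 3 of 3 ephrin-B ligands. Further tested genes were 2 of 3 Slits, 2 of 3 Robos, 1 of 5 netrins and netrin-Gs, 3 of 3 Dcc and Unc5 receptors, and Unc50. Genes with no tested probe set were Epha1, Epha2, Ephb4, Efna1, Efna4, Efna5, Slit3, Robo3, Ntn1, Ntn3, Ntn4 and Ntng2. Netrin-1, the ligand of Dcc and Unc5, was therefore not tested while its receptors were. Just inside the filter lay probe sets of Efnb1 and Ntng1, with geometric means of 128 and 126, and just outside it Robo3 and a second Ntng1 probe set, both at 105.

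No member probe set passed the adjusted threshold in any of the 3 comparisons (limma, Benjamini-Hochberg adjusted p under 0.05, 0 of 32 each time). Over all probe sets, 0.00737% passed in KO against WT, 0% in HZ against WT and 0.00737% in KO against HZ, the only call being Gap43. At an unadjusted p under 0.05, 3 of 32 members (9.38%) were called in KO against WT, all higher, where 8.03% of all probe sets were called (4.43% higher and 3.59% lower). In HZ against WT there were 4 (12.5%), 2 of them higher and 2 lower, against 6.22% of all probe sets (4.06% higher and 2.16% lower). In KO against HZ there were again 4 (12.5%), 3 higher and 1 lower, against 7.73% of all (3.96% higher and 3.76% lower). The share of members was thus close to the background in KO against WT and above it by 1 or 2 probe sets in the other comparisons. Without KO replicate 3 the first count was 5, and without HZ replicate 2 the second was 2.

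The 3 comparisons share arrays, each genotype entering 2 of them, so their values are given side by side and are not independent. In KO against WT, 16 of the 22 member genes lay above 0, with a median log2 change of 0.16, where 53.6% of all 8503 genes lay above 0 with a median of 0.02. In HZ against WT, 13 of 22 lay above 0 with a median of 0.02, against 56.7% and 0.04 for all genes. In KO against HZ, 15 of 22 lay above 0 with a median of 0.09, against 45.1% and -0.03. The KO median depended on 1 mouse: without KO replicate 1 it was 0.068 against WT and -0.023 against HZ. On that array the member genes lay at a median of 0.21 above their own means over all arrays on the log2 scale, while the other 8 arrays ranged from -0.13 to 0.06.

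**Figure D1:**
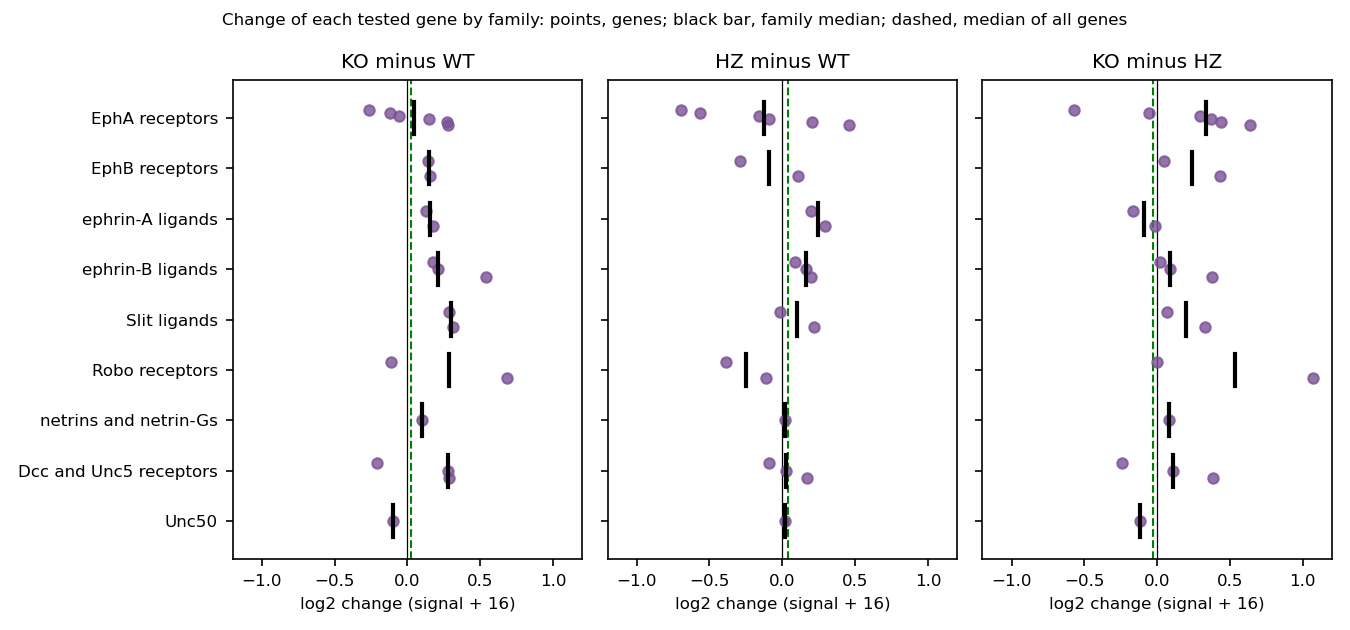
Log2 change of each tested gene, by family, in KO minus WT, HZ minus WT and KO minus HZ; points are genes, the black bar is the family median and the dashed line the median of all genes tested. All 8 ligand genes lie above 0 in KO minus WT, and the EphA points spread from -0.69 to 0.46 in HZ minus WT.

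Ligands and receptors were compared as groups, with the netrin-G gene Ntng1 counted as a ligand and no netrin among those tested. All 8 tested ligand genes lay above 0 in KO against WT, with a median of 0.20, 7 of 8 in HZ against WT, with a median of 0.18, and 6 of 8 in KO against HZ, with a median of 0.075. The count of 8 does not hold without KO replicate 1, where Ntng1 was at -0.075. Both tested ephrin-A ligands lay below 0 in KO against HZ, with a median of -0.092. Of the 13 receptor genes, 8 lay above 0 in KO against WT (median 0.15), 5 in HZ against WT (median -0.09) and 9 in KO against HZ (median 0.30). By family, the KO against WT medians were 0.05 for EphA, 0.15 for EphB, 0.15 for ephrin-A, 0.21 for ephrin-B, 0.30 for Slit, 0.29 for Robo and 0.28 for Dcc and Unc5. The HZ against WT medians were -0.13 for EphA, -0.09 for EphB, 0.25 for ephrin-A, 0.17 for ephrin-B, 0.10 for Slit, -0.25 for Robo and 0.03 for Dcc and Unc5. The ephrin families were thus above 0 in both comparisons with WT, while EphA, EphB and Robo changed side. For Efnb1 and Efnb2 on their brightest probe sets, only HZ replicate 2 lay above all WT arrays. Both tested EphB genes had their highest KO signal in KO replicate 1. Family medians were not recomputed without either array. With 1 to 6 genes a family and no gene past the adjusted threshold, no difference between families was tested.

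Robo1, the receptor through which Slits repel axons, had the largest difference of all members. Its signals were 331.5, 218 and 144 in WT, 169, 188.5 and 137 in HZ, and 277, 371 and 460 in KO. All 3 KO arrays lay above all 3 HZ arrays, while the WT arrays overlapped both. Robo1 was 2.10-fold higher in KO than in HZ (log2 change 1.07, SE 0.27, limma adjusted p = 0.336). Against WT the log2 change was 0.68 in KO (SE 0.27, limma adjusted p = 0.575) and -0.39 in HZ (SE 0.27, limma adjusted p = 0.809). WT replicate 1 carried most of the second value, which was -0.11 without it. Without WT replicate 3 the changes against WT were 0.41 in KO and -0.67 in HZ. Without HZ replicate 2 the change from HZ to KO was 1.17. Robo1 did not pass the threshold in any comparison.

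Robo4, a Robo relative of endothelial cells, had mean signals of 161 ± 8.38 in WT, 151 ± 41.3 in HZ and 148 ± 18.3 in KO (SD, n = 3), with log2 changes of -0.11 in both mutants against WT. Slit2, a Slit ligand, had signals of 275, 294 and 246 in WT, 260, 261 and 283 in HZ, and 329.5, 441 and 272 in KO. Only KO replicates 1 and 2 stood above every WT and HZ array. The log2 change of Slit2 in KO was 0.31 against WT (SE 0.19, limma adjusted p = 0.723) and 0.33 against HZ (SE 0.19, limma adjusted p = 0.721). Without KO replicate 2 they were 0.14 and 0.15. Slit1 had mean signals of 182 ± 24.6 in WT, 220 ± 66.8 in HZ and 230 ± 61.1 in KO (SD, n = 3), and its groups overlapped.

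**Figure D2:**
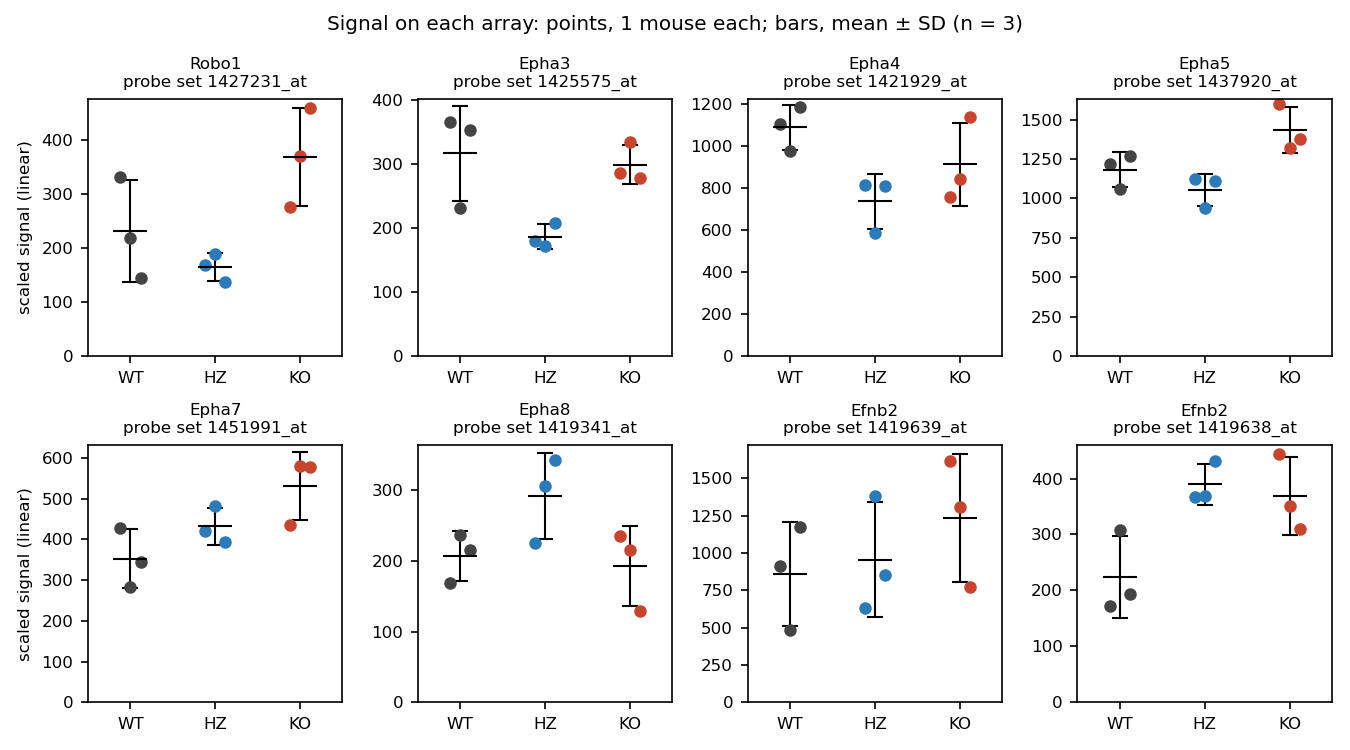
Linear scaled signal (y axis, from 0) on each array for 8 probe sets of Robo1, Epha3, Epha4, Epha5, Epha7, Epha8 and Efnb2; points are mice and bars the mean ± SD (n = 3). The HZ points of Epha3 and Epha4 lie below all WT points, the KO points of Robo1 above all HZ points, and the 2 Efnb2 panels differ.

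Among the EphA receptors, Epha3, Epha4, Epha5 and Epha7 had their lowest mean in HZ on the brightest probe set of each. Epha3, a receptor for ephrin-A ligands, had signals of 365, 231.5 and 353 in WT, 179, 172 and 208 in HZ, and 286, 334 and 278 in KO. The HZ arrays lay below all others and the KO arrays lay within the WT range. Its log2 change was -0.69 in HZ against WT (SE 0.20, 95% interval -1.12 to -0.27, limma adjusted p = 0.789) and -0.06 in KO against WT (limma adjusted p = 0.959). In KO against HZ it was 1.56-fold higher (log2 change 0.64, SE 0.20, limma adjusted p = 0.466). Without HZ replicate 2 the changes were -0.64 and 0.59. The other Epha3 probe sets were too dim to test. In a fit without the filter they gave log2 changes of -0.17 and 0.06 in HZ against WT.

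Epha4, which binds ephrins of both classes, had signals of 1103, 973 and 1182 in WT, 814, 584 and 809.5 in HZ, and 756, 842 and 1134 in KO on its brighter probe set. All HZ arrays lay below all WT arrays. The log2 change was -0.56 in HZ against WT (SE 0.19, limma adjusted p = 0.789), or -0.41 without HZ replicate 2, and -0.27 in KO against WT (SE 0.19, limma adjusted p = 0.757). The KO value was -0.15 without KO replicate 1 and -0.43 without KO replicate 3. Its other probe set did not show this. The signals there were 189, 190.5 and 193 in WT, 260.5, 165 and 241 in HZ, and 260, 111 and 180 in KO, a log2 change of 0.18 in HZ against WT (SE 0.26). The direction for Epha4 in HZ therefore depends on the probe set.

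Epha5, a receptor for ephrin-A ligands, had signals of 1221, 1057 and 1272 in WT, 1121, 937 and 1108 in HZ, and 1599, 1323 and 1378 in KO. The lowest KO array lay above the highest WT and HZ arrays. The log2 change in KO was 0.27 against WT (SE 0.15, limma adjusted p = 0.696) and 0.44, or 1.35-fold, against HZ (SE 0.15, limma adjusted p = 0.539), or 0.35 without HZ replicate 2. Its second probe set also had its highest mean in KO, at 201 ± 41.6 against 167 ± 20.3 in WT and 191.5 ± 19.3 in HZ (SD, n = 3).

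Epha7, another ephrin-A receptor, was read by 3 tested probe sets. On one of them, named here after its values were seen, the signals were 429, 284 and 345 in WT, 420, 483 and 394 in HZ, and 435, 579 and 578 in KO. All KO arrays lay above all WT arrays there, with a log2 change of 0.58 (SE 0.19, limma adjusted p = 0.518). The other 2 gave log2 changes of 0.28 (SE 0.22) and 0.07 (SE 0.18) in KO against WT. All 3 lay above 0 in KO against WT, but in HZ against WT they gave 0.30, -0.09 and -0.26.

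Epha8, also an EphA receptor, was the only member with an unadjusted p under 0.05 that lay lower in KO than in HZ. Its signals were 168, 236.5 and 216 in WT, 225, 306 and 343 in HZ, and 235, 215.5 and 129 in KO. The KO and HZ arrays overlapped, since KO replicate 1 lay above HZ replicate 1. It was 1.49-fold lower in KO than in HZ (log2 change -0.57, SE 0.24, limma adjusted p = 0.610) and its log2 change in HZ against WT was 0.46 (SE 0.24, limma adjusted p = 0.790). Without KO replicate 3 the change from HZ to KO was -0.33, and without HZ replicate 2 it was -0.53. Epha6 had means of 144 ± 17 in WT, 168 ± 20.6 in HZ and 161 ± 8.77 in KO (SD, n = 3), and its log2 changes against WT were 0.21 in HZ and 0.15 in KO.

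Of the EphB receptors, Ephb3 had signals of 361.5, 705 and 387 in WT, 371, 420 and 339 in HZ, and 682, 411 and 479 in KO. One array in WT and one in KO lay far above the others of their group. Its log2 change was -0.29 in HZ against WT (SE 0.25, limma adjusted p = 0.836), which became 0.0041 without WT replicate 2 and -0.46 without WT replicate 1. In KO against HZ it was 0.43 (SE 0.25, limma adjusted p = 0.731), or 0.23 without KO replicate 1. Ephb6, an Eph receptor without kinase activity, had means of 782 ± 31.8 in WT, 850 ± 135 in HZ and 891 ± 234 in KO (SD, n = 3). The groups overlapped.

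Ephrin-B2 (Efnb2), a ligand of EphB receptors and of Epha4 that is also a marker of arteries, gave different pictures on its 2 tested probe sets. On the brighter the signals were 912, 486 and 1176 in WT, 632, 1378 and 851 in HZ, and 1618, 1308 and 772 in KO, and all groups overlapped. The log2 change in KO against WT was 0.54 (SE 0.35, limma adjusted p = 0.740), and it ran from 0.18 without WT replicate 2 and 0.31 without KO replicate 1 to 0.84 without KO replicate 3. On the dimmer, named after its values were seen, the signals were 172, 308 and 193 in WT, 367, 369.5 and 432 in HZ, and 444.5, 352 and 310 in KO. Every HZ and KO array lay above every WT array, though KO replicate 3 lay close to the highest WT array. The log2 change was 0.79 in HZ (SE 0.22, limma adjusted p = 0.789) and 0.71 in KO (SE 0.22, limma adjusted p = 0.485), both set against the same WT arrays. Without HZ replicate 2 the HZ value was 0.83. The brighter probe set gave 0.17 in HZ against WT (SE 0.35), and only HZ replicate 2 lay above all WT arrays there.

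Ephrin-B1 (Efnb1), an X-linked ligand of EphB receptors, was read by 3 tested probe sets, all above 0 in both comparisons with WT. On one of them, named after its values were seen, the signals were 195, 107.5 and 228 in WT, 252, 327 and 251 in HZ, and 303, 215 and 236 in KO. The HZ arrays lay above all WT arrays (log2 change 0.65, SE 0.25, limma adjusted p = 0.789), and the change was 0.36 without WT replicate 2 and 0.53 without HZ replicate 2. The other 2 gave 0.20 and 0.05, and on both only HZ replicate 2 lay above all WT arrays. The brightest had HZ signals of 265, 609.5 and 312.5 against 357, 317 and 294 in WT. Values of these 2 without HZ replicate 2 were not computed. Ephrin-B3 (Efnb3) had the smallest spread between mice of 1 genotype among the members, with means of 738 ± 67.9 in WT, 787 ± 79.3 in HZ and 836 ± 80.8 in KO (SD, n = 3). Its log2 change in KO against WT was 0.18 (95% interval -0.16 to 0.51).

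The ephrin-A ligands were mostly too dim to test. Efna3 had signals of 479, 368 and 485 in WT, 473, 633 and 539 in HZ, and 566, 368 and 540.5 in KO, and the groups overlapped. Its log2 change in HZ against WT was 0.30 (SE 0.20, limma adjusted p = 0.803), or 0.17 without WT replicate 2 and 0.19 without HZ replicate 2. Efna2 had means of 160 ± 12.5 in WT, 186.5 ± 28.3 in HZ and 185 ± 39.1 in KO (SD, n = 3). Efna5, a ligand known for its part in the cortical map, had signals between 10.6 and 46.4 and was not tested.

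Among the netrin receptors, Unc5c, which mediates repulsion by netrin-1, had signals of 935.5, 728 and 859.5 in WT, 952.5, 859 and 1028 in HZ, and 1217, 924 and 936 in KO. Only KO replicate 1 lay above all HZ arrays. The log2 change in KO against WT was 0.28 (SE 0.17, limma adjusted p = 0.725), or 0.15 without KO replicate 1 and 0.18 without WT replicate 2. Its second probe set gave 0.36 (SE 0.23). Unc5b, a related receptor also known from blood vessels, had means of 148 ± 56.6 in WT, 132 ± 27.4 in HZ and 177.5 ± 39.3 in KO (SD, n = 3). Dcc, the receptor for attraction by netrin-1, had signals of 162, 185 and 159.5 in WT, 189, 186.5 and 144 in HZ, and 201, 122 and 119 in KO. The log2 change of Dcc in KO against WT was -0.21 (95% interval -0.69 to 0.26), an interval that spans 0.

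Ntng1 was the only netrin or netrin-G that was tested. It had signals of 131, 108 and 130 in WT, 114, 111 and 152 in HZ, and 174, 91.5 and 145 in KO, and KO held both its highest and its lowest array. The log2 change in KO against WT was 0.10 (SE 0.24, limma adjusted p = 0.935), and it ran from -0.075 without KO replicate 1 to 0.34 without KO replicate 2. Unc50, which is no guidance gene, had means of 2271 ± 121 in WT, 2314 ± 310 in HZ and 2125 ± 182 in KO (SD, n = 3) on its brightest probe set, with a log2 change of -0.12 in KO against HZ (SE 0.14, limma adjusted p = 0.898) that ran from -0.021 without HZ replicate 2 to -0.21 without HZ replicate 3.

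**Figure D3:**
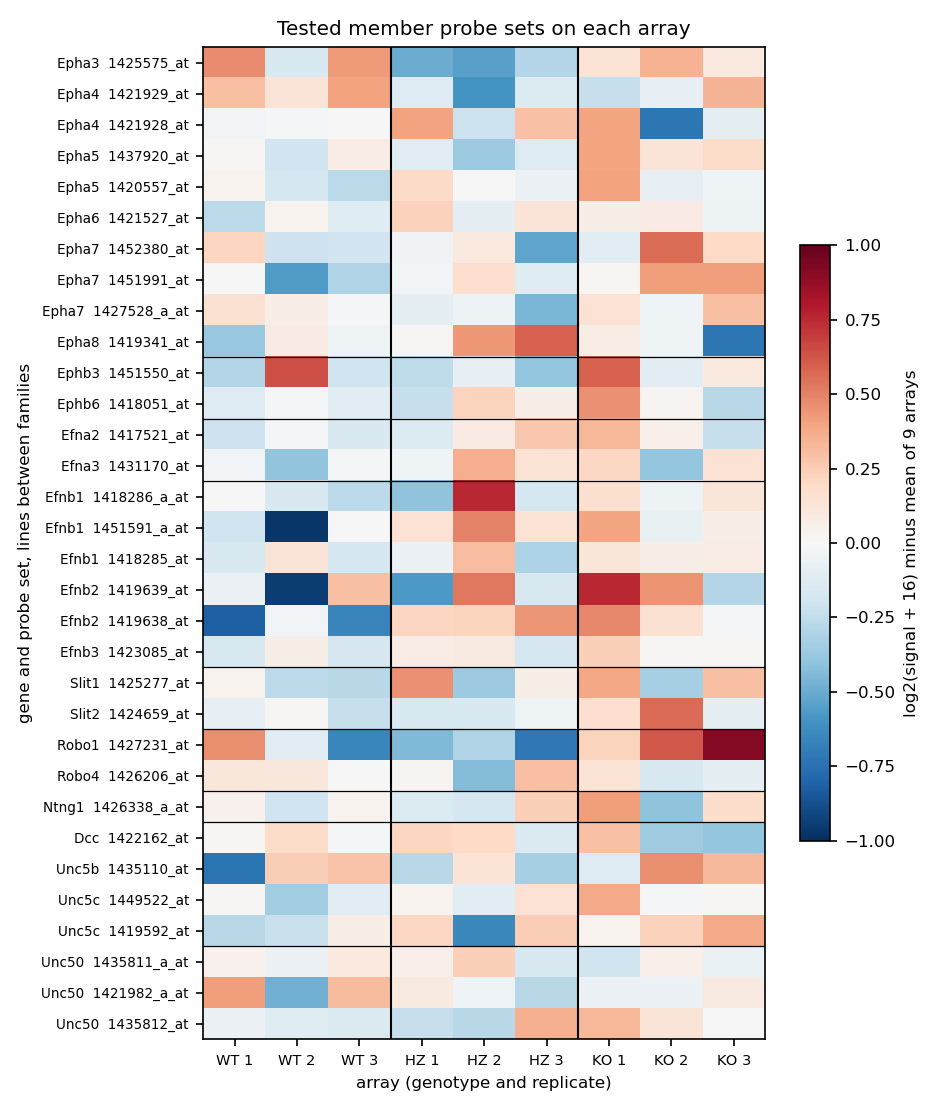
Signal of each tested member probe set (rows, by family) on each of the 9 arrays (columns), as log2(signal + 16) minus the mean of the 9 arrays. The column of KO replicate 1 is high for most rows, with a median of 0.21 over the member genes.

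The arrays of 2 genotypes did not overlap for 4 of 32 member probe sets in KO against WT (12.5%), 5 in HZ against WT (15.6%) and 4 in KO against HZ (12.5%). The same was true of 13.7%, 12.9% and 14% of all tested probe sets, so the members' shares were near the background. In KO against WT the 4 were probe sets of Epha5, Epha7, Efnb2 and Unc50, all higher in KO, where 7.83% of all probe sets lay higher and 5.83% lower. In HZ against WT they were Efnb2 and Efnb1, higher in HZ, and Epha3, Epha4 and Epha7, lower, against 8.51% higher and 4.39% lower of all. In KO against HZ they were Robo1, Epha3, Epha5 and Epha7, all higher in KO, against 6.67% higher and 7.35% lower of all. The Epha7 probe set counted in KO against WT was not the one counted in the other comparisons. The Unc50 probe set was its dimmest, and its brightest had a log2 change of -0.10 in KO against WT.

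The order of the 3 genotype means was then described for the 22 genes. KO was highest for 13 of them (59.1%), where it was highest for 32.9% of all genes tested. The means ran from WT through HZ to KO for 7 genes (31.8% against 18.1% of all genes), among them all 3 ephrin-B ligands, Slit1 and Unc5c. HZ lay below both other genotypes for 8 genes (36.4% against 27% of all genes), among them Robo1, Epha3, Epha4, Epha5, Epha7 and Ephb3. KO was lowest for 4 genes, Dcc, Epha8, Robo4 and Unc50 (18.2% against 34.2%). Most neighbouring means in these orders differed by less than the spread between mice, whose median log2 SD within a genotype was 0.255 for the members and 0.226 for all genes. The orders were not recomputed without KO replicate 1, on which the member genes lay at a median of 0.21 above their own log2 means. Nor were they recomputed without HZ replicate 2, the only HZ array above all WT arrays for Efnb1 and Efnb2 on their brightest probe sets.

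**Figure D4:**
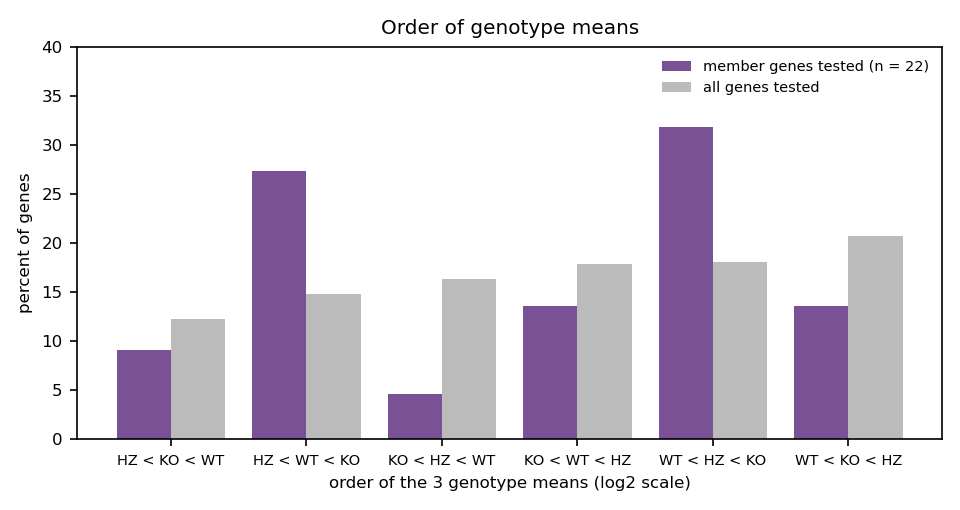
Percent of genes (y axis) in each order of the 3 genotype means on the log2 scale (x axis), for the 22 tested member genes and for all genes tested. The order from WT through HZ to KO holds 31.8% of members and 18.1% of all genes. Orders without KO replicate 1 or without HZ replicate 2 were not computed.

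Different probe sets of a gene read different stretches of its transcripts, so their direction was compared for the 7 genes with several tested probe sets. They shared a direction for 6 of 7 genes in KO against WT, the exception being Unc50. In HZ against WT they shared it for 3 of 7, with Epha4, Epha5, Epha7 and Unc50 split, and in KO against HZ for 3 of 7, with Epha4, Efnb1, Efnb2 and Unc50 split.

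**Figure D5:**
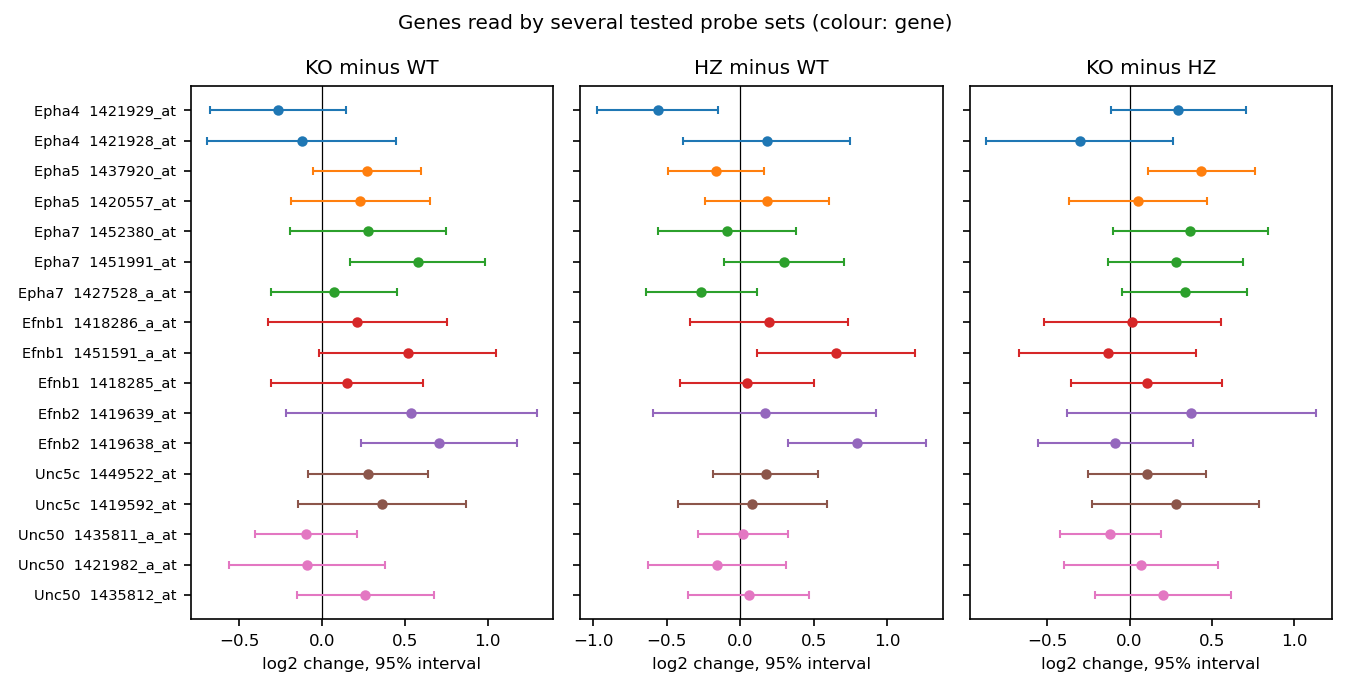
Log2 change with its 95% interval (x axis) of each tested probe set of the 7 genes read by several, in the 3 comparisons; colours mark genes. Probe sets of 6 of the 7 genes lie on the same side of 0 in KO minus WT, and of 3 of the 7 in each other panel.

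The 22 probe sets that were too dim to test had signals between 2.07 and 213 on single arrays. In a fit without the filter, 17 of them lay above 0 in KO against WT, with log2 changes from -0.18 to 0.91, and none had an unadjusted p under 0.05 in any comparison (limma adjusted p of 0.746 or more). The value of 0.91 was that of Efna4, whose WT signals were 130, 10.7 and 86.6, so that 1 WT array set it. Robo3, a Robo receptor of commissural axons, had means of 89.1 ± 10.2 in WT, 112 ± 13 in HZ and 117 ± 15.1 in KO (SD, n = 3). Ntn1 had signals of 40.1 to 105.8 over its 2 probe sets in all genotypes.

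Genes that act downstream of or beside these receptors were read from a list of 50, of which 39 were on the array and 35 were tested. In KO against WT, 23 lay above 0 and 12 below, with a median of 0.09, and 0 had an unadjusted p under 0.05 in limma, where 53.6% of all genes lay above 0 and 8.15% had such a p. In HZ against WT, 20 lay above 0 (median 0.01), and 2 had an unadjusted p under 0.05, both lower, against 56.7% and 6.03% of all genes (1.94% lower). In KO against HZ, 22 lay above 0 (median 0.06), and 2 had such a p, both higher, against 45.1% and 7.64% (3.56% higher). Over both directions, neither count of 2 was above the share in all genes. None passed the adjusted threshold in any comparison.

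Maged1, a MAGE family protein known to bind Unc5 receptors, had signals of 1784, 1931 and 1681 in WT, 1455, 1398 and 1395 in HZ, and 2214, 1901 and 2181 in KO. All HZ arrays lay below all WT and KO arrays. It was 1.47-fold higher in KO than in HZ (log2 change 0.56, SE 0.13, limma adjusted p = 0.324), and its log2 change in HZ against WT was -0.34 (SE 0.13, limma adjusted p = 0.789). Chn1, the Rac-inactivating chimaerin that acts below Epha4, had signals of 782, 908 and 848 in WT, 665, 360 and 704 in HZ, and 643, 808 and 683 in KO. Its log2 change in HZ against WT was -0.60 (SE 0.22, limma adjusted p = 0.789), or -0.30 without HZ replicate 2.

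Rac1, a small GTPase that drives the actin cytoskeleton, had a log2 change of 0.34 in KO against HZ (limma adjusted p = 0.623), or 0.24 without HZ replicate 2. Fyn, a Src family kinase used by ephrin and netrin receptors, had one of 0.25 in KO against HZ (limma adjusted p = 0.705) and 0.22 in KO against WT (limma adjusted p = 0.726). Ablim1, an actin-binding protein, gave 0.30 (limma adjusted p = 0.671) and Tiam1, a Rac activator, -0.43 (limma adjusted p = 0.728), both in KO against WT. Ablim1 was at 0.17 without WT replicate 2 and 0.19 without KO replicate 2, and Tiam1 at -0.25 without KO replicate 1. Src gave 0.32 in HZ against WT (limma adjusted p = 0.802), or 0.24 without HZ replicate 2.

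A set of 4 member genes, Epha3, Epha6, Ephb3 and Robo1, lie on chromosome 16, as Gap43 does, in the RefSeq annotation. Their log2 changes were -0.69, 0.21, -0.29 and -0.39 in HZ against WT and -0.06, 0.15, 0.14 and 0.68 in KO against WT. These values lay on both sides of 0 in both comparisons, and any relation to the position of Gap43 was not tested.

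Markers of the cell types that layer IV tissue could hold were read beside the members. In KO against WT, 9 of 11 tested astrocyte markers lay below 0, with a median log2 change of -0.38, and 6 of them had an unadjusted p under 0.05 in limma, all lower, as 3.74% of all genes did. Of the same markers, 9 of 11 also lay below 0 in HZ against WT, with a median of -0.17, and 1 had such a p. The summed signal of all 12 astrocyte markers on the array, tested or not, was 27569 to 34433 in WT, 27274 to 28730 in HZ and 22027 to 30884 in KO. Of the tested endothelial and mural markers, 9 of 10 lay below 0 in KO against WT (median -0.08) and in KO against HZ (median -0.25). The summed signal of all 12 on the array was 5355 to 5900 in WT, 5286 to 6390 in HZ and 4319 to 5633 in KO. Tested microglial markers lay below 0 for 5 of 5 in KO against WT (median -0.24). All 11 on the array summed to 1942 to 3888 in WT, 1963 to 2508 in HZ and 1640 to 1998 in KO. The median sums were closer together, at 2014 in WT, 2303 in HZ and 1958 in KO. Of 8 oligodendrocyte lineage markers, 5 lay above 0 in KO against WT (median 0.09), and the 2 with an unadjusted p under 0.05, Olig1 and Cnp, lay lower. The summed signal of all 10 oligodendrocyte lineage markers on the array was 5304 to 7500 in WT, 5280 to 6328 in HZ and 3921 to 5521 in KO. Medians in KO against WT were -0.08 for 10 interneuron markers, 0.00 for 9 deep layer and subplate markers and -0.16 for 4 thalamic and striatal markers.

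Layer IV itself was checked by 5 tested markers of layer IV and upper layer neurons, of 8 on the array. The summed signal of all 8, tested or not, was 2962 to 3823 in WT, 3804 to 4473 in HZ and 2325 to 3801 in KO. The median log2 change of the 5 tested markers was -0.02 in KO against WT, 0.19 in HZ against WT and -0.37 in KO against HZ. In KO against WT, 2 of the 5 lay above 0 and 3 below, from Rorb as the lowest to Lhx2, at 0.31, as the highest. All 5 lay above 0 in HZ against WT, and 1 of 5 did in KO against HZ. Rorb, a layer IV transcription factor, had log2 changes of -0.66 in KO against WT (limma adjusted p = 0.435) and -0.86 in KO against HZ (limma adjusted p = 0.247). The part of any of these shifts in the values of the guidance genes was not tested.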

How the data were processed

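Values were the deposited linear probe set intensities of 9 arrays, which the submitters' processing notes credit to MAS5 and Affymetrix Expression Console. Tool versions and MAS5's scaling target were not given in the sources used here. After the highest and lowest 2% of probe sets were left out, every array's mean was 500.2, so no further scaling was applied. Groups follow the genotype that each title states, and each array was 1 mouse (n = 3).

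Control probe sets (64) were dropped, intensities were taken as log2(signal + 16), and probe sets were ranked by their mean, of which the top 60% stayed: 13576 probe sets and 8503 genes. This scale understates changes of dim probe sets. Genotype was fitted to the 9 arrays by limma 3.58.1 (R 4.3.3, eBayes with an intensity trend, 6 residual and 6.94 prior degrees of freedom), 2-sided, with Benjamini-Hochberg adjustment over all kept probe sets and 95% intervals unadjusted. The procedure was tested on simulated data. Arrays with the same replicate number did not deviate together (r from -0.26 to 0.11 over 9 pairs), so the fit had no block.

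Probe sets were named by the platform annotation, and all 54 members matched RefSeq (GRCm38.p6) by Entrez gene identifier. Gene-level values are those of the brightest probe set. The members, the list of downstream genes and the 8 lists of cell type markers were chosen with earlier results of these data known. By rule, full statistics were given for the 6 member genes of smallest p in each comparison, the gene of smallest p in each family and the 3 downstream genes of smallest p per comparison, and any probe set added after its values were seen is said to be. Alternatives changed the pseudocount, filter, scaling, model terms and arrays.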

Additional observations from a re-analysis of the deposited data

How the results depend on the processing

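The count of members past the adjusted threshold was 0 in each comparison under all 21 alternatives. Of 686 values of named genes other than Gap43 under the alternatives, 684 kept their direction and their side of the threshold and 2 changed direction. These were Ephb3 in HZ against WT, at 0.0041 without WT replicate 2 (range -0.46 to 0.0041 when single arrays were left out), and Ntng1 in KO against WT, at -0.075 without KO replicate 1 (range -0.075 to 0.34). Gap43 kept its call in KO against WT in 14 of 21 alternatives and in KO against HZ in 10 of 21. The limma adjusted p reached 0.204 and 0.287 with no filter, 0.0824 and 0.144 with no intensity trend, and 0.146 and 0.0697 with only the 2 genotypes compared. Gap43 in HZ against WT turned to 0.090 without WT replicate 1 (range -0.27 to 0.090). With only the brightest 40% of probe sets kept, 18 member probe sets were tested, and in KO against HZ 2 had an unadjusted p under 0.05 and the median log2 change was 0.30. When single arrays were left out, the number of members at an unadjusted p under 0.05 ran from 2 to 5 in KO against WT, 2 to 5 in HZ against WT and 3 to 6 in KO against HZ. The median log2 change of the members ran from 0.068 to 0.19, from -0.011 to 0.096 and from -0.023 to 0.17 in the same order. The log2 change of Robo1 in KO against HZ ran from 0.90 to 1.26, with limma adjusted p from 0.209 to 0.656. With the replicate number as a block, the counts of members at an unadjusted p under 0.05 were 3, 4 and 4 and the medians 0.16, 0.02 and 0.09, and the block changed no call among the members. Leaving out Unc50, an alternative chosen after seeing the data, gave medians of 0.18, 0.03 and 0.09. With array weights, Efnb2 in KO against WT was at 0.18, Ablim1 at 0.20 and Ntng1 at 0.026, in HZ against WT Efna3 was at 0.16, Ephb3 at -0.16 and the named Efnb1 probe set at 0.36, and Unc50 in KO against HZ was at -0.043. With quantile normalization Ntng1 was at 0.038 in KO against WT. The number of arrays and the dimness of 22 of the 54 probe sets limit what could be seen.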
